A study of Mus musculus with 572 samples.

Results

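The 50 cells described here are the mTEChigh with the highest levels of 6 microfold cell genes, 8.74% of all cells of the series. Medullary thymic epithelial cells (mTECs) are the cells of the thymic medulla that show tissue antigens to developing T cells, and mTEChigh are those sorted as CD45-, EpCAM+, Ly51- and MHCII high. The score of a cell was the mean of its deposited normalized values for Spib, Gp2, Sox8, Tnfaip2, Ccl9 and Ccl20, and the 50 highest scores were taken over both genotypes together. These values chose the cells, so the levels of the 6 genes in them are given as a description and support nothing. All cells came from neonatal C57BL/6 mice and were profiled by RamDA-seq, a full-length total RNA method, with 1 library for each sorted cell. The EED-cKO mice lacked Eed, a subunit of the polycomb repressive complex PRC2, in the epithelium through a floxed allele and Foxn1-Cre. The Aire/EED-dKO mice carried the same deletion together with the loss of Aire, the nuclear regulator that drives tissue antigen genes in mature mTECs. Eed deletion was thus shared by both genotypes, and no cells with intact Eed were in this series. EED-cKO cells came from batches 3 and 4, with 87 and 76 cells of day 4 after birth, and batches 8 and 9, with 63 and 77 cells of day 3. Aire/EED-dKO cells came from batches 1, 2, 6 and 7, with 88, 76, 38 and 67 cells of day 4. No batch held both genotypes, so genotype and batch cannot be told apart, and the labels name no animal or litter. One cell of batch 7 labelled Aire/EED-dKO, not among the 50, had Aire at 1666 CPM (reads of a gene per 1000000 reads of the cell), and the Aire values are given with and without it.

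Microfold cells (M cells) are specialised epithelial cells that lie over the lymphoid follicles of the gut, where they take up particles and bacteria and hand them to the lymphocytes beneath. Their differentiation is driven by RANKL from the underlying stroma through RANK and NF-kB, and requires the transcription factors Spi-B and Sox8. In the thymus, cells with a similar program occur among the mimetic mTECs, which take on features of peripheral cell types.

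Of the 50 highest-scoring cells, 40 were EED-cKO, which is 13.2% of that genotype (95% exact Clopper-Pearson interval 9.60 to 17.5). The other 10 were Aire/EED-dKO, 3.72% of that genotype (1.797 to 6.73). These intervals cover counting error of cells only, and both shares rest on different batches. Within EED-cKO the share ranged only from 11.7% in batch 9 to 14.9% in batch 3, with 13, 9, 9 and 9 cells in batches 3, 4, 8 and 9. By age it was 12.9% of the day 3 cells and 13.5% of the day 4 cells. Within Aire/EED-dKO, batches 1, 2 and 7 gave 3, 2 and 5 cells, and batch 7 had the highest share, 7.46% (2.47 to 16.6). Batch 6 gave 0 of 38 cells, which allows a share of up to 7.89% taking 3 cells as the limit, or 9.25% as the upper bound of the exact interval. The median score over all EED-cKO cells was 0.429, against 0.329 over the Aire/EED-dKO cells, so typical scores, and not only the highest, were lower in the cells of the second genotype.

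**Figure D1:**
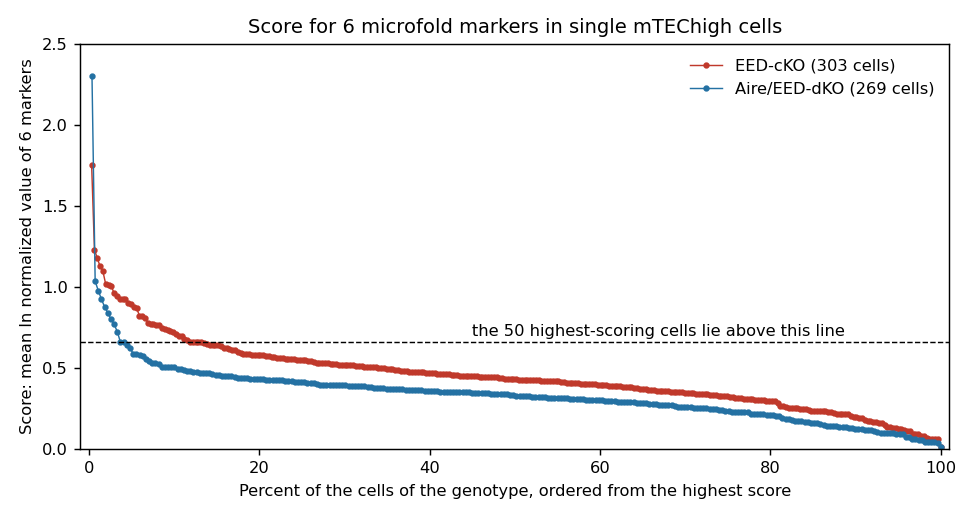
Each point is 1 cell, with the percent of the cells of its genotype that score at least as high on the x axis and its score on the y axis (natural log scale, 6 markers averaged). The curves fall without a gap at the dashed line, above which lie 13.2% of the EED-cKO cells against 3.72% of the Aire/EED-dKO cells.

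The cut at 50 cells did not fall at a break in the scores. The last cell inside had a score of 0.65664 and the first cells outside had 0.65651 and 0.65534. Members ranged from 0.657 to 2.30 with a median of 0.813, and the other 522 cells from 0.0103 to 0.657 with a median of 0.357. Members were sequenced about as deeply as the rest. In EED-cKO the median was 1150000 reads per member and 1263600 per remaining cell, and in Aire/EED-dKO 766970 and 940870. Members had slightly fewer detected genes, a median of 14901 against 15254 in EED-cKO, with 14263 against 14855 in Aire/EED-dKO, and after thinning each cell to 200000 reads 11846 against 12154 and 11966 against 12127.

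The label of microfold-like cells was checked against its own 6 markers. A marker was taken as present at 50 CPM. Only 1 of the 50 cells had all 6 markers, the EED-cKO cell of rank 9 by score among the 50 (batch 9), with Spib at 340, Gp2 at 115.6, Sox8 at 130.8, Tnfaip2 at 62.7, Ccl9 at 665 and Ccl20 at 60.0 CPM. Another 5 cells had 5 markers, 11 had 4, 26 had 3 and 7 had 2. In most of the cells the score was thus carried by a part of the set. Among the remaining 522 cells, 39 had at least 3 markers (7.47%), 2 had at least 4 and 0 had 5.

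Spib, which encodes the Ets factor Spi-B, was the common denominator rather than a distinguishing gene. It was present in 48 of the 50 members and in 461 of the 522 other cells, with cell medians of 645 and 368 CPM. Gp2, the uptake receptor for FimH-bearing bacteria and the classical mature M cell marker, was present in only 12 members and was at 0 reads in 28 of them. In the rest it was present in 31 cells. Sox8 was present in 18 members and at 0 in 19, against 40 of the other cells. Tnfaip2 (M-Sec), which helps to form membrane nanotubes, was present in 34 of the members and 32.4% of the other cells. The chemokine genes separated the groups most by these counts: Ccl9 was present in 31 members and 48 other cells, and Ccl20, which attracts CCR6-bearing lymphocytes and dendritic cells, in 24 members and 24 other cells.

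Across all cells of the series the markers hardly went together. Spearman's rho was 0.30 for Spib with Sox8, 0.28 for Spib with Tnfaip2 and 0.26 for Ccl9 with Ccl20, and lay between -0.10 and 0.09 for the other 12 pairs. These are descriptions over cells that share batches and depth. Spib was the highest of the 6 markers in 23 members, Ccl9 in 10, Ccl20 in 8, Tnfaip2 in 5, Gp2 in 3 and Sox8 in 1. Because the markers were rarely found together, the 50 cells are called the highest-scoring cells here and are not treated as 1 cell type.

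**Figure D2:**
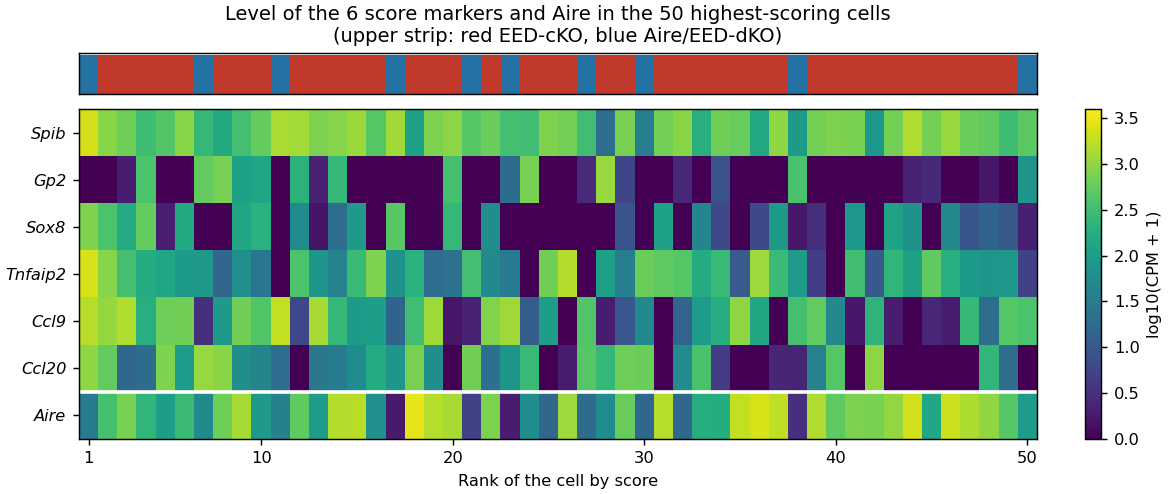
Columns are the 50 highest-scoring cells in order of rank (x axis), rows are the 6 score markers and Aire, and colour is log10(CPM + 1). The upper strip gives the genotype. Spib is present in nearly every column, whereas Gp2 is at 0 in 28 of the 50 and Sox8 in 19.

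The highest score, 2.30, belonged to an Aire/EED-dKO cell of batch 7. This cell had Spib at 2299, Tnfaip2 at 2382, Ccl9 at 1650, Ccl20 at 966 and Sox8 at 796 CPM, and no Gp2 read in 448424 reads. The next, an EED-cKO cell of batch 8 with a score of 1.75, had the same pattern at lower levels: Ccl9 at 1084, Spib at 922, Tnfaip2 at 886, Ccl20 at 543, Sox8 at 379 and Gp2 at 0 CPM. Among genes outside the score, the M cell genes Msln and Pglyrp1 were at 4159 and 1534 CPM in the first cell and at 1116 and 809 CPM in the second. Mmp7 was at 377 and 649 CPM in the same cells, and Traf1 at 564 and 670 CPM. Gp2 was instead highest in the EED-cKO cell of rank 28 (batch 8), at 1096 CPM, where Spib was at 18.1 CPM, the lowest value among the 50 cells.

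Members were then compared with the remaining cells of the same genotype. The reads of each group were summed, and the log2 ratio of the 2 summed CPM values was taken after adding 0.1 CPM. A gene was called where this ratio was at least 2-fold and had the same sign in each batch with at least 3 members (all 4 EED-cKO batches, and batches 1 and 7 for Aire/EED-dKO). With no label naming an animal, each genotype is 1 sample, and no p-value or standard error is given. Of 16194 genes compared in EED-cKO, 1.53% were called higher and 4.39% lower. In Aire/EED-dKO, with only 10 members, 6.04% of 16645 genes were called higher and 13.2% lower. A gene was compared where at least 20% of the members or of the rest had 5 reads or more, and a gene that met this only in the members was let in by the group where more cells have it. Such genes were 5.68% of those compared in EED-cKO and 12.1% in the second genotype, and they hold 29.4% and 41.9% of the higher calls. Of the genes that met it in the rest, 1.15% and 3.99% were called higher. Among the list genes named below, Ccl6, Cxcl17, Trim40, Cav1, Itgam, Ivl and Bpifa1 met it only in the members where they are called higher. The higher calls include 5 of the score markers in EED-cKO (all but Spib) and 3 in Aire/EED-dKO (Tnfaip2, Ccl9 and Ccl20). With DESeq2 size factors the EED-cKO shares became 2.24% higher and 3.37% lower. Calls were also made with the member with most reads of each gene left out. As no remaining cell is left out with it, this mostly lowers ratios, and 42.3% of the higher calls in EED-cKO were then kept, and 36.8% of those in Aire/EED-dKO. Without cycling cells, defined further on, 65.3% of the higher and 57.8% of the lower EED-cKO calls were kept. Higher calls lost in this way include Mmp7 (2.16), Asah2 (0.94), Ccl5 (0.88), Cxcl16 (0.95), Msln (0.67), Hnf4g (1.20) and Cd79b (0.91). Of the genes called higher, 74 were shared by both genotypes, which is 29.8% of the EED-cKO calls and 7.36% of the Aire/EED-dKO calls, and 9 genes called higher in EED-cKO were called lower in Aire/EED-dKO.

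Among the genes called higher in EED-cKO, gene models (Gm numbers, Rik names, unnamed identifiers) left out, Ccl6 had the largest ratio outside the score. Ccl6 is a CC chemokine gene next to Ccl9. Its summed level was 44.6 CPM in the 40 members and 1.99 CPM in the other EED-cKO cells (log2 ratio 4.42). In Aire/EED-dKO it was 33.5 and 1.32 CPM (4.57). Ccl6 was an all-or-little gene in these cells. Among EED-cKO members it ranged from 0 to 551 CPM with a median of 2.07, and 18 of 40 had no read. Among the other EED-cKO cells 70.3% had no read, and the highest reached 75.7 CPM. The ratio was 3.45, 3.02, 5.83 and 3.87 in batches 3, 4, 8 and 9. In Aire/EED-dKO it was 6.55 and 2.37 in batches 1 and 7 and -0.98 in batch 2, which held 2 members and did not enter the call. Over both genotypes, 39 cells had Ccl6 at 10 CPM or more and 16 of them were members. Ccl6 and Ccl9 were both at 10 CPM or more in 14 members and 10 other cells.

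Ccl6 (chr11:83587882-83593087) and Ccl9 (chr11:83572919-83578636) lie on the minus strand of chromosome 11 in GRCm38, 9245 bases apart with no annotated gene between them, whereas Ccl20 (chr1:83116766-83119167) is on chromosome 1. The promoter windows of these 3 chemokine genes are shown because their ratios are among the largest in EED-cKO and 2 of them are neighbours. Ccl9 and Ccl20 are score markers, so their ratios follow from the choice of the cells. Only Ccl6 lies outside the score. Each runs from 250 bases before to 50 bases after the start in RefSeq (GRCm38.p6) and is printed 5′ to 3′ on the strand of the gene. Capitals mark GAGGAA, the core of a Spi-B or PU.1 site, and the NF-kB consensus, both searched on either strand. The letters of both can overlap.
Ccl9, chr11:83578587-83578886, minus strand: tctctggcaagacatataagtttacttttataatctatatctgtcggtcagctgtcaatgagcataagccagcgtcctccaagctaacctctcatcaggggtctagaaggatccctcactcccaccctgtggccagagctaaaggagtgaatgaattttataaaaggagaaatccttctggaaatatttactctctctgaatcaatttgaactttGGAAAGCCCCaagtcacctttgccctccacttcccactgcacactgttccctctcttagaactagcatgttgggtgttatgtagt
Ccl6, chr11:83593038-83593337, minus strand: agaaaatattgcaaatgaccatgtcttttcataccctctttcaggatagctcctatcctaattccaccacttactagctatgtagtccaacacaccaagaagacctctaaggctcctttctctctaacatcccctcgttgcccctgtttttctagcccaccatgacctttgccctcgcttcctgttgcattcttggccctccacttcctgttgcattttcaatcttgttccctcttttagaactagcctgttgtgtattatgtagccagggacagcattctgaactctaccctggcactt
Ccl20, chr1:83116516-83116815, plus strand: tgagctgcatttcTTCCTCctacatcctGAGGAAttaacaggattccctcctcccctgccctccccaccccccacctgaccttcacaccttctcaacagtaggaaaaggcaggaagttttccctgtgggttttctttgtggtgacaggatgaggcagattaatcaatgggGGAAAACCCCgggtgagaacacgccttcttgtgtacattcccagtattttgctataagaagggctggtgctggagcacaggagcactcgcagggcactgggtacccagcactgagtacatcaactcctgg
The Ccl20 window held 2 matches to GAGGAA and 1 to the NF-kB consensus. The Ccl9 window held 1 match to the NF-kB consensus and the Ccl6 window held neither. All matches in the 3 windows thus lie at score markers. GAGGAA occurs in 28.3% and the NF-kB consensus in 4.51% of all 32851 promoter windows of the same length. Of the 74 genes called higher in both genotypes, 44 had a promoter in the table, and their 52 windows held GAGGAA in 38.5% and the NF-kB consensus in 9.62%, or 5 windows. These genes include 3 of the score markers, which chose the cells. Without them the remaining 49 windows held GAGGAA in 38.8% and the NF-kB consensus in 6.12%, or 3 windows. A match is a description of letters and not a binding site.

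Of 24 further chemokine genes, 15 could be compared in EED-cKO and 2 were called higher, against 1.53% of all genes. These were Ccl5 (167.1 against 81.2 CPM, log2 ratio 1.04) and Cxcl16 (266.4 against 132.8 CPM, 1.00). Ccl5 attracts T cells and Cxcl16 is the ligand of CXCR6. The median ratio of the 15 genes was 0.81, beside -0.08 over all genes compared, and 12 of 15 ratios were above 0. By batch the median was 0.79, -0.53, 0.68 and 1.05 in batches 3, 4, 8 and 9. In Aire/EED-dKO, 4 of 14 were called higher, against 6.04% of all genes, and 2 lower (Ccl27a and Cxcl12), against 13.2%. The higher ones were Cxcl16 again (270 against 129.2 CPM, 1.06), Ccl5 (84.9 against 31.9 CPM, 1.41), Cxcl2 (113.3 against 16.4 CPM, 2.78) and Cxcl17. The median there was 0.90, but 0.22 without batch 1 and 0.10 without batch 2. With a score that left out Ccl20 the chemokine medians were 0.065 in EED-cKO, with 0.0057 in Aire/EED-dKO. Cxcl17 rested on 2 cells, with 95.3% of the member reads in the highest-scoring one. Without the member with most reads of the gene, 0 of these chemokine genes were still called higher in either genotype. The ratios were then 0.98 for Ccl5 and 0.95 for Cxcl16 in EED-cKO. For Aire/EED-dKO they were 0.57 for Ccl5, 0.96 for Cxcl16, 1.86 for Cxcl2 and 2.09 for Cxcl17. Cxcl16 was the most even of these genes. It was at 50 CPM or more in 40 of 40 EED-cKO members and 72.2% of the other EED-cKO cells, and in 9 of 10 Aire/EED-dKO members and 72.97% of the others. Its cell medians were 249.9 and 104.5 CPM in members and rest of EED-cKO, against 260.1 and 87.3 CPM for Aire/EED-dKO. Its ratio sat at the 2-fold limit, however. It was 0.95 in EED-cKO without the cell of rank 2, and 0.99 in Aire/EED-dKO with TMM factors. Ccl2, a monocyte chemoattractant gene, had a larger ratio in EED-cKO (56.8 against 7.96 CPM, 2.82) but was not called, as it was -0.62 in batch 9.

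Known M cell genes that did not enter the score shifted little as a group. Of 18 such genes, 17 could be compared in each genotype. In EED-cKO 2 were called higher, Ccl6 and Msln, against 1.53% of all genes, and 0 lower. Their median ratio was 0.44 beside -0.08 over all genes, and 15 of 17 were above 0, where 42.3% of all genes were. Msln, which encodes the surface glycoprotein mesothelin, was at 365 CPM in members and 178.5 CPM in the rest (1.03), with ratios of 0.48, 0.03, 2.00 and 3.16 in batches 3, 4, 8 and 9. Without the cell of rank 2 it was 0.95, and without cycling cells 0.67, and it was called in neither case. Below the limit lay Pglyrp1, a peptidoglycan-binding protein (207.6 against 114.5 CPM, 0.86), Serpinb1a, a protease inhibitor (291.6 against 168.5 CPM, 0.79), and Marcksl1 (328 against 241.3 CPM, 0.44). Tnfrsf11b, the decoy receptor for RANKL that M cells make, was at 313 and 260 CPM (0.27).

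In Aire/EED-dKO 4 of the 17 genes were called higher, Ccl6, Serpinb1a (312 against 92.7 CPM, 1.75), Pglyrp1 (185.3 against 78.5 CPM, 1.24) and Serpinb6a (227.2 against 103.97 CPM, 1.13), against 6.04% of all genes. Icosl, a costimulatory ligand, was called lower (353 against 1014 CPM, -1.52) and was below the median of the rest in all 10 members. The median ratio was 0.44 (-0.03 over all genes), with 13 of 17 above 0, where 48.4% of all genes were. It was 0.086 without the member with most reads, and 0.16, -0.021 and 0.57 in batches 1, 2 and 7. Pglyrp1 stood at 0.40 without the cell of rank 1, and Serpinb6a at 0.83 without its member with most reads. Summed over the 18 genes, 31 of 40 EED-cKO members lay above the median of their remaining cells (77.5%), and 5 of 10 Aire/EED-dKO members (50.0%).

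**Figure D3:**
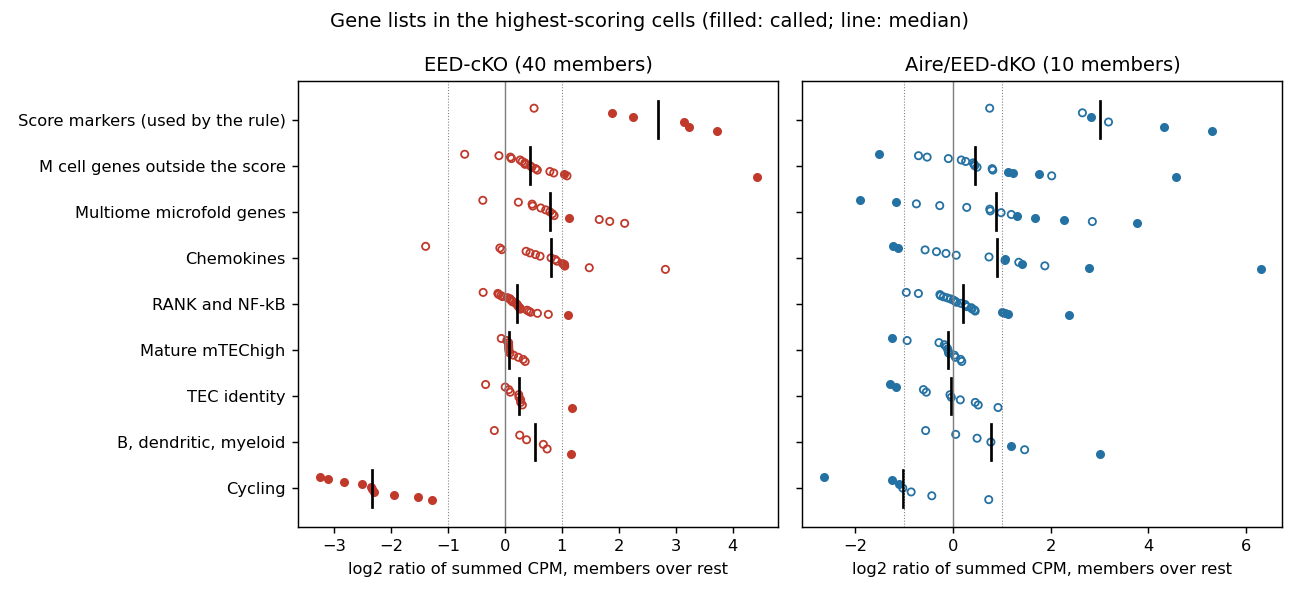
Each circle is 1 gene of a list and gives the log2 ratio of summed CPM in the highest-scoring cells over the remaining cells of the same genotype (x axis). Filled circles were called, black bars are medians and dotted lines mark 2-fold. The score markers lie right because they chose the cells, the M cell genes outside the score centre at 0.44 in both panels, and all 10 cell cycle genes lie left in EED-cKO.

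A second list came from the study itself, 20 genes that its multiome data of other samples placed in the microfold cluster alone. The table behind it was read here only in part, so the list is incomplete. In EED-cKO 13 of them could be compared, 1 was called higher (Asah2, a neutral ceramidase, 82.8 against 37.7 CPM, 1.13), against 1.53% of all genes, and 12 were above 0, where 42.3% of all genes were, with a median of 0.79. In Aire/EED-dKO 14 could be compared and the median was 0.87, but 0.087 without the member with most reads and 0.31 with 25 cells of each genotype. Of these, 4 were called higher, namely Trim40, Kcnh1, Mgam (392.4 against 122.5 CPM, 1.68) and Pkhd1 (62.1 against 25.0 CPM, 1.31), and 2 lower, Efr3b and Prickle2, against 6.04% and 13.2% of all genes. Without the member with most reads of the gene, Trim40 (2.66), Kcnh1 (0.72) and Mgam (1.04) were no longer called there, nor was Asah2 in EED-cKO (0.85). Mgam, an intestinal disaccharidase gene, and Pkhd1 also had ratios of 1.66 and 1.84 in EED-cKO, but their signs differed between batches and they were not called. Asah2 reached 0.98 in Aire/EED-dKO, where 9 of 10 members lay above the median of the rest.

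RANK and NF-kB genes were compared because this pathway drives M cells. In EED-cKO 1 of 23 was called higher, against 1.53% of all genes. This was Traf1 (225.1 against 104.5 CPM, 1.11), an NF-kB target that encodes a TNF receptor adaptor. Traf1 was above the median of the rest in 32 of 40 members, and its ratio was 1.22, 0.28, 1.53 and 1.36 in batches 3, 4, 8 and 9. The receptor gene itself, Tnfrsf11a (RANK), was at 708 and 602 CPM (0.23), Relb at 378 and 314 CPM (0.27) and Nfkb2 at 591 and 543 CPM (0.12). The list had a median of 0.21. In Aire/EED-dKO Traf1 was again called higher (378 against 173.9 CPM, 1.12), with Tnfaip3, which encodes the inhibitor A20 (481 against 92.5 CPM, 2.38), Rel (341 against 162.1 CPM, 1.07) and Ltbr (78.4 against 38.96 CPM, 1.01), 4 of 22 in all, against 6.04% of all genes, and a median of 0.21. Rel rested on 1 cell, with 61.1% of the member reads, and stood at -0.08 without it. Traf1 and Ltbr were at 0.65 and 0.75 there without the member with most reads, and Traf1 was at 1.01 in EED-cKO. Without cycling cells it was at 0.84 in EED-cKO and not called. Tnfaip3 was the broadest of the group. It was above the median of the rest in 10 of 10 Aire/EED-dKO members, which ranged from 60.5 to 847 CPM with a median of 479, where the other cells had a median of 49.1 CPM. In EED-cKO it was at 261.8 and 154.2 CPM (0.76), with 30 of 40 members above the median of the rest, but its ratio was -0.04 in batch 9.

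Among Ets and Sox family genes other than the 2 in the score, 4 of 25 were called higher in EED-cKO and 3 lower, against 1.53% and 4.39% of all genes. The higher ones were the epithelial Ets factors Ehf (277.7 against 115.7 CPM, 1.26) and Elf3 (155.02 against 75.1 CPM, 1.04), Etv1 (41.97 against 15.8 CPM, 1.41) and Ets1 (110.8 against 52.5 CPM, 1.08). The lower ones were Sox11 (17.7 against 60.0 CPM, -1.75), Sox12 (-1.55) and Sox13 (-1.04). For Ets1, 37.1% of the member reads lay in 1 cell and the ratio was 0.45 without it. Elf3 was at 0.89 without its member with most reads, whereas Ehf and Etv1 kept their calls. Sox10 had the largest ratio of the list (62.6 against 1.45 CPM, 5.34) but was not called, and 49.9% of its member reads were in 1 cell. In Aire/EED-dKO the picture differed: Ehf was at 87.4 and 107.1 CPM (-0.29), Ets1 at 34.97 and 41.95 CPM (-0.26) and Elf3 at 89.2 and 50.9 CPM (0.81), none of them called. Of 24 genes there, Sox13 was called higher (24.5 against 8.67 CPM, 1.48) and 5 lower, Spic, Etv5, Sox7, Sox12 and Sox21, against 6.04% and 13.2% of all genes.

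Beyond the lists, the genes called higher in both genotypes with the largest ratios were Ccl6, Mmp7, Mall, Tnf, Odf3l1, Plekhs1 and Slc6a20b, besides the score markers Ccl9, Ccl20 and Tnfaip2. In Aire/EED-dKO, Mmp7 and Mall met the 20% filter only in the members, with 5 reads or more in 14.7% and 13.1% of the rest. Ccl6 and Ccl20 did so in both genotypes. These calls were thus let in by the group where the genes are high. Mmp7, the matrix metalloproteinase that activates defensins in the gut, was at 76.1 and 11.1 CPM in EED-cKO (2.77) and at 221.1 and 13.2 CPM in Aire/EED-dKO (4.06). It was present at 50 CPM in 9 of 40 EED-cKO members (22.5%) and 6.08% of the other cells, and in 6 of 10 Aire/EED-dKO members (60.0%) and 3.47% of the others. Single values reached 682 CPM in members and 607 CPM in the rest, so the groups overlapped over nearly their whole range. Plekhs1, a pleckstrin homology domain gene, was the most widely expressed of these, at 147.97 and 41.96 CPM in EED-cKO (1.82). In Aire/EED-dKO it was at 380 and 82.6 CPM (2.20). It was above the median of the rest in 32 of 40 and 8 of 10 members.

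Tnf, the cytokine gene, was at 46.7 and 11.8 CPM in EED-cKO (1.97) and at 48.2 and 9.97 CPM in Aire/EED-dKO (2.26). It had no read in 15 of 40 EED-cKO members, whose median was 8.81 CPM and highest value 770 CPM, and reached 676 CPM in the rest. Mall, a MAL-family membrane protein gene, was at 40.6 and 9.13 CPM (2.14) and at 25.0 and 3.52 CPM (2.79). In Aire/EED-dKO 82.2% of its member reads came from 1 cell, and the ratio was 0.47 without that cell. Odf3l1 (1.96 and 1.95) and Slc6a20b, an amino acid transporter gene (1.77 and 2.95), kept their calls in both genotypes without the member with most reads. Mmp7 (2.43) and Tnf (1.61) were then no longer called in EED-cKO.

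**Figure D4:**
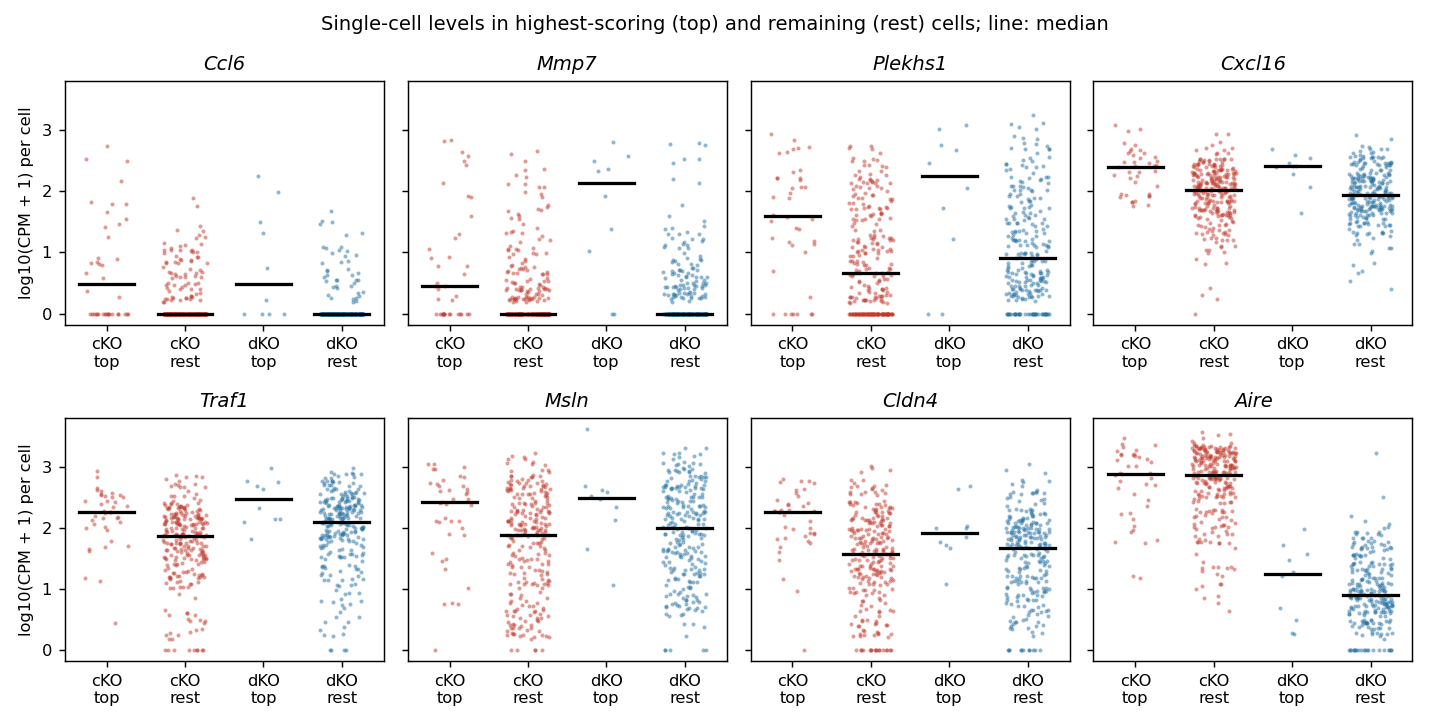
Each point is 1 cell (y axis: log10(CPM + 1)), grouped on the x axis as the highest-scoring cells (top) and the remaining cells (rest) of EED-cKO (cKO, 40 top cells) or Aire/EED-dKO (dKO, 10 top cells), with bars at the medians. Medians of Cxcl16, Traf1 and Msln are higher in the top cells of both genotypes with wide overlap, Ccl6 and Mmp7 are high in a minority of cells, and Aire shows no shift in EED-cKO.

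In EED-cKO the remaining largest ratios among called genes belonged to Krt84, Spink4, Unc5cl, Pvr, Atp10b, Kcnj10 and Klk1. Of these, Krt84, Spink4, Unc5cl, Kcnj10 and Klk1 met the filter for comparison only in the members. The reads it asks for were found in 7.60% (Klk1) to 18.3% (Krt84) of the rest. These calls were thus let in by the group where the genes are high, whereas Pvr and Atp10b met the filter in the rest too. Atp10b, a phospholipid flippase gene, was at 165.6 and 28.8 CPM (2.52) with ratios between 2.05 and 2.85 in all 4 batches, and 28 of its 40 members had reads. Pvr, the poliovirus receptor (CD155), was at 60.4 and 8.94 CPM (2.74), and its median was 8.26 CPM in members and 0 in the rest. Spink4, a goblet cell protease inhibitor, was at 16.4 and 2.33 CPM (2.77). Krt84, a hair and nail keratin gene, rested on 1 cell, which held 86.7% of the member reads, and stood at 0.63 without it. Without the member with most reads Kcnj10 (1.39) and Klk1 (2.07) stayed above 2-fold but were no longer called. Pvr was no longer called without cycling cells (2.61). The 8 genes with the largest called ratios below 0 were Col5a2 (1.21 against 33.2 CPM, -4.66), Stac2, Polq, Lonrf3, Shcbp1, Adamts19, Nacad and E2f7 (2.66 against 37.8 CPM, -3.78). Polq, Shcbp1 and E2f7 act in DNA repair or the cell cycle. Without cycling cells Polq (-3.63), Lonrf3 (-4.49), Shcbp1 (-1.89) and Adamts19 (-3.90) were no longer called.

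In Aire/EED-dKO the largest called ratios above 0 rested on a few cells. The 12 genes, led by Cxcl17, Eps8l3, Cd55b, C4bp, Tm4sf4 and Ivl, had at least 5 reads in 20 to 30% of the 10 members, apart from Ccl20 with 70%. In the rest this held for 0.772 to 11.6% of the cells, so each of the 12 met the 20% filter only in the members. For Cxcl17, C4bp and Tm4sf4 more than 95% of the member reads were in 1 cell, with 95.3, 96.8 and 98.03%. The genes with the largest called ratios below 0 were Tmem178b, Dtl, Nxph1, Pik3r6, Slc13a1 and Kif18a, each with 0 reads in the 10 members, and Oprd1 and Acvr1c with 1 and 2 reads. In the remaining cells they lay between 9.97 CPM (Kif18a) and 36.7 CPM (Acvr1c). The members together hold 7891793 reads, and no fold is given for these genes. Most of the remaining cells had no read of Dtl either. Dtl, a replication licensing gene, was called lower in EED-cKO as well (5.55 against 43.6 CPM, -2.95), and Nxph1 was called higher there (14.8 against 7.32 CPM, 1.01). Without cycling cells neither was called there, with ratios of -1.60 and 0.91.

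Cell cycle genes were lower in the highest-scoring EED-cKO cells. All 10 genes of the list were called lower, against 4.39% of all genes, with a median ratio of -2.34. Mki67, the proliferation antigen, was at 50.2 and 254.6 CPM (-2.34), Top2a at 23.2 and 164.7 CPM (-2.82), Ccna2 at 6.46 and 61.97 CPM (-3.24) and Aurkb at 3.97 and 34.997 CPM (-3.11). Fewer of the members were cycling. Taking a summed level of 500 CPM over the 10 genes as cycling, 2 of 40 members were cycling (5.00%, interval 0.611 to 16.9) and 48 of the other cells (18.3%, 13.8 to 23.5). Over all cells of each group, cycling or not, the medians were 53.7 and 62.9 CPM. Without cycling cells in either group 0 of the 10 genes were called, the median ratio of the list was -0.75, and Mki67 stood at 0.48. The same 10 genes define the cycling cells, so this loss was largely set by the definition and nothing is drawn from it. The share among the remaining cells was higher in the day 3 batches, 25.9 and 33.8% in batches 8 and 9, than in the day 4 batches, 6.76 and 8.96% in batches 3 and 4. By batch, 0 of 13, 0 of 9, 1 of 9 and 1 of 9 members were cycling.

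In Aire/EED-dKO 3 of 7 cell cycle genes were called lower, against 13.2% of all genes, Top2a (9.38 against 58.97 CPM, -2.64), Cdk1 (-1.26) and Ccna2 (-1.11), with a median of -1.03. There 1 of 10 members was cycling (interval 0.253 to 44.5) and 18 of the other cells (6.95%), a difference that 10 cells cannot resolve. The highest-scoring EED-cKO cell was one of the 2 cycling members, with a summed level of 2604 CPM and Mki67 at 950 CPM.

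**Figure D5:**
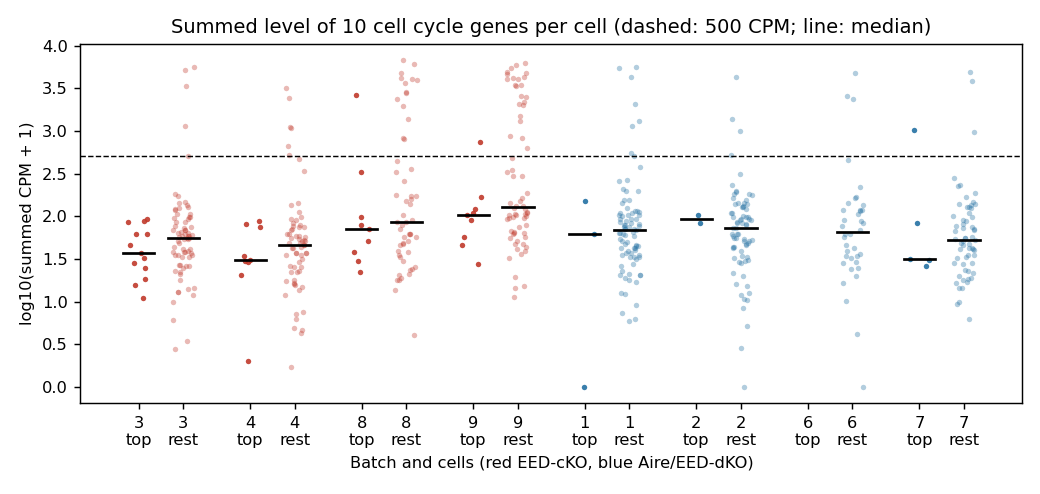
Each point is 1 cell, with the summed level of 10 cell cycle genes on a log10(CPM + 1) axis, by batch and by highest-scoring (top) or remaining (rest) cells. Points above the dashed line at 500 CPM are cycling, 2 of 40 top and 48 remaining cells in EED-cKO (red), and the median of the top cells lies below that of the rest in each of the 4 EED-cKO batches (36.1 and 55.2, 29.4 and 44.97, 70.6 and 84.5, and 103.1 and 128.2 CPM).

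Aire was measured in the highest-scoring EED-cKO cells at the level of the other cells. The summed level was 833 CPM (Poisson interval 825 to 842) in the 40 members and 870 CPM (867 to 874) in the other cells, a log2 ratio of -0.06. The cell medians were 750 and 731 CPM, and the values ran from 14.5 to 2929 CPM in members and from 3.38 to 3706 CPM in the rest. The sign was not stable over batches, with ratios of 0.02, -0.52, -0.34 and 0.29 in batches 3, 4, 8 and 9, a spread far wider than the counting intervals. It was above 0 with TMM factors (0.021), with DESeq2 size factors (0.067) and without batch 4 (0.075). Under 100 CPM were 7 of 40 members (17.5%) and 38 of the other cells (14.4%). Over the EED-cKO cells the score and Aire had a Spearman's rho of 0.02.

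Within the EED-cKO members the very highest scores went with less Aire. The 10 highest-scoring EED-cKO cells had a median of 320 CPM, ranks 11 to 20 had 1266 CPM and ranks 21 to 40 had 902 CPM, against 753, 649 and 766 CPM for ranks 41 to 80, ranks 81 to 160 and all lower ranks. The low value is confined to 10 cells, and with the 30 highest cells taken as members the EED-cKO ratio was -0.46. The markers themselves differed in this respect: rho with Aire was 0.29 for Spib and 0.18 for Sox8, but -0.18 for Ccl20, -0.17 for Tnfaip2 and -0.13 for Gp2. In Aire/EED-dKO Aire reads were few, 21.2 CPM (18.1 to 24.6) in members and 22.6 CPM (21.96 to 23.17) in the rest (-0.09). Without the remaining cell with 1666 CPM the rest was at 15.3 CPM and the ratio became 0.47. With that cell kept, the ratio was -0.23, -2.48 and -0.24 in batches 1, 2 and 7. It was 0.038 for the mean CPM of cells, 0.17 without batch 2 and -1.22 without batch 7, so its direction there is not settled. Eed reads were at 11.6 and 11.5 CPM in EED-cKO members and rest and at 13.3 and 12.7 CPM in Aire/EED-dKO. Counts over the whole gene do not separate transcripts with and without the deleted part.

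Of 12 other genes of mature mTEChigh, 0 were called in EED-cKO, where 1.53% of all genes were called higher and 4.39% lower. At these shares a count of 0 says little. The median ratio was 0.07. In members and rest H2-Aa, an MHC class II chain, was at 1061 and 997 CPM, Cd74 at 1469 and 1400 CPM and Fezf2 at 329 and 313 CPM. Cd80 was at 153.4 and 120 CPM (0.36), higher in the members of batches 3 and 8 but lower in those of batches 4 and 9. In Aire/EED-dKO 1 of 12 was called lower, Cd86 (20.8 against 49.5 CPM, -1.25), against 13.2% of all genes, and Ciita stood at -0.94. The same incomplete table puts 444 genes in the Aire-driven cluster alone. Of those that could be compared in EED-cKO, 31 met the 20% filter only in the members. There 0 were called higher and 13 lower (10.4%, against 4.39% of all genes). The summed level of the list was 7602 CPM in members and 7678 CPM in the rest, with cell medians of 6883 and 5365 CPM. Cells had a median of 60.5 of its genes in members and 52 in the rest. The calls thus do not show the list as a whole to be lower. The median ratio was -0.06 in all (-0.08 over all genes) and -0.60, -0.68, -1.15 and -0.03 in batches 3, 4, 8 and 9. Medians over all genes are not given by batch, so the batch values of the list have no background in either genotype. In Aire/EED-dKO 84 could be compared. Of these, 11 were called higher (13.1%, against 6.04% of all genes) and 20 lower (23.8%, against 13.2%), with a median of 0.23 in all but -1.61, -1.74 and -0.28 in batches 1, 2 and 7. Among the 84, 40 met the 20% filter only in the members, and they hold 8 of the 11 higher calls. The share called higher is therefore no result about this list.

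Genes of uptake and lysosomes serve the carriage of cargo by M cells. Lipa, the lysosomal acid lipase gene, was the only one of 20 called higher in EED-cKO, against 1.53% of all genes (123.9 against 40.6 CPM, 1.61), with ratios of 0.60, 1.55, 0.02 and 3.07 by batch. The median was 0.25 and 16 of 20 were above 0, among them Ctsd (0.90), Npc2 (0.62) and Rab11a (0.56). In Aire/EED-dKO Ctsd, the cathepsin D gene, was called higher (156.6 against 55.8 CPM, 1.49) and was above the median of the rest in 10 of 10 members, with Cav2 (51.6 against 17.9 CPM, 1.52) and Cav1 (3.93 against 1.39 CPM, 1.43). Cav1 rested on 1 cell. These are 3 of the 21 genes compared, against 6.04% of all genes, and 0 were called lower.

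Of 10 epithelial identity genes, 1 was called higher in EED-cKO, against 1.53% of all genes, and 0 lower. In Aire/EED-dKO 0 were called higher and 2 lower, against 13.2% of all genes. Epcam ranged from 19.02 to 876 CPM in EED-cKO members and from 55.6 to 778 CPM in Aire/EED-dKO members. Cldn4, the tight junction protein of which the gene is high in mature mTECs, was called higher in EED-cKO (202.01 against 89.5 CPM, 1.17), with ratios of 0.63, 1.35, 1.88 and 1.26 by batch. It was above the median of the rest in 36 of 40 members, and kept its call without the member with most reads, but was at 0.94 and not called without cycling cells. In Aire/EED-dKO it was at 180 and 94.9 CPM (0.92), with 9 of 10 members above the median of the rest, while the epithelial transcription factor gene Pax1 was called lower (40.2 against 98.3 CPM, -1.29).

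Markers of haematopoietic cells were checked because Spib, Ccl9 and Ccl20 are also made by B, dendritic or myeloid cells. Of 16 such genes only 6 could be compared in EED-cKO, against 7 in Aire/EED-dKO, the rest being too low. Of these, 1 of 6 and 2 of 7 were called higher, against 1.53% and 6.04% of all genes, and 0 lower. Their median ratios were 0.53 and 0.77, with 5 of 6 and 6 of 7 above 0, beside the 0.44 of the M cell genes in either genotype. Cd79b was called higher in both genotypes (68.2 against 30.4 CPM, 1.16, and 114.04 against 49.7 CPM, 1.20) and Itgam in Aire/EED-dKO, where 73.5% of its member reads were in 1 cell. Without the member with most reads Cd79b was at 0.89 and 0.66 and was no longer called. The summed level of the 16 genes was 748 CPM in members and 559 CPM in the rest of EED-cKO, and 1009 against 783 CPM for Aire/EED-dKO. By cell it ranged from 69.4 to 1902 CPM in EED-cKO members and from 20.1 to 3627 CPM in the rest, and from 89.2 to 2404 and 28.3 to 3617 CPM in Aire/EED-dKO. Most of that sum was Lyz2 (287.3 against 220 CPM in EED-cKO) and Irf8 (266.6 against 222.4 CPM). Ptprc (CD45), on which cells were excluded in the sort, had no read in 37 of 40 EED-cKO members and 8 of 10 Aire/EED-dKO members. The EED-cKO cell of rank 28, the one with the most Gp2, had 481 CPM of Ptprc and held 99.4% of its member reads. Tyrobp did not exceed 7.17 CPM in any member. Adgre1 (F4/80), a macrophage marker too rarely detected to be compared, was at 45.7 CPM in EED-cKO members and 13.6 CPM in the rest. Of its member reads, 88.1% were in the EED-cKO cell of rank 40, with 1624 CPM, and the cells of ranks 9 and 16 had 84.2 and 76.99 CPM. The cell of rank 9 is the one with all 6 score markers, and it also had the highest Tyrobp level among the members. Csf1r stood at 30.1 against 18.8 CPM and Itgax at 4.19 against 0.494 CPM in EED-cKO, with 74.9% and 99.5% of the member reads in 1 cell. Adgre1 and Itgax had no read in the Aire/EED-dKO members. The part of such RNA in the results was not tested beyond these values.

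Among lists for other mimetic cells, 2 of 6 airway and goblet genes were called higher in EED-cKO, against 1.53% of all genes, and 3 of 6 in Aire/EED-dKO, against 6.04%. These were Cftr, the chloride channel gene, called in both genotypes (96.8 against 44.1 CPM, 1.13, and 147.4 against 60.6 CPM, 1.28), Bpifa1 in EED-cKO (1.64), and Foxa1 and Wfdc2 in Aire/EED-dKO. Without the member with most reads Cftr stood at 0.97 in EED-cKO, with 0.85 in Aire/EED-dKO, Bpifa1 at 0.98, Foxa1 at 0.80 and Wfdc2 at 0.90. Of 5 enterohepatic genes compared in EED-cKO 1 was called higher and 1 lower, against 1.53% and 4.39% of all genes, and of 6 in Aire/EED-dKO 1 was called higher, against 6.04%. Hnf4g, an intestinal transcription factor gene, was called higher in both (33.4 against 11.9 CPM, 1.47, and 84.5 against 24.7 CPM, 1.77) and lost both calls in the same way, with ratios of 0.87 and 1.07. Myoid genes were called lower in 4 of 6 cases in Aire/EED-dKO, against 13.2% of all genes, among them Myog (3.93 against 34.5 CPM, -3.10), and in 1 of 5 in EED-cKO, against 4.39%. The keratinocyte, tuft, neuroendocrine and ciliated lists, with 7, 7, 3 and 3 genes compared, had 0 calls in EED-cKO. With 1.53% of all genes called higher and 4.39% lower, 0 calls among so few genes say little. In Aire/EED-dKO 2 of 7 keratinocyte genes (Ivl and Sbsn) and 1 of 5 tuft genes (Gfi1b) were called higher, against 6.04% of all genes. Called lower there were 2 of 5 tuft genes (Avil and L1cam), 2 of 5 neuroendocrine genes (Insm1 and Snap25) and 2 of 2 ciliated genes (Foxj1 and Dnah5), against 13.2%.

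Among 11 genes of PRC2 and its partners, Phf19 was called lower in EED-cKO (-1.20), 1 of 11 against 4.39% of all genes, and Phf1 higher in Aire/EED-dKO (1.03), 1 of 11 against 6.04%. Of 7 cortical epithelial genes compared, 1 was called in EED-cKO (lower, against 4.39% of all genes). In Aire/EED-dKO 1 was called higher and 2 lower, against 6.04% and 13.2%. Prss16 was lower in both, and Cxcl12 was lower and Ly75 higher in the second. Phf1 and Ly75 were at 0.49 and 0.87 without the member with most reads. In EED-cKO without cycling cells Phf19 and Prss16 were at -0.42 and -0.97, and neither was called. Of 10 thymocyte genes 2 could be compared in EED-cKO with 0 calls, and 3 in Aire/EED-dKO, where Rag1 was called lower, against 13.2% of all genes. Of 10 stress and immediate early genes 0 were called in EED-cKO and Hmox1 was called higher in Aire/EED-dKO (2.12), 1 of 10 against 6.04% of all genes.

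The members did not form a tight group beyond the 6 markers. Each cell was placed by the correlation of its 2000 most variable genes, the markers left out, and its 20 nearest neighbours within its own batch were taken. In EED-cKO 14.5% ± 8.83 (SD over 40 members) of the neighbours were members, where 12.2% of the cells were. In Aire/EED-dKO it was 3.50% ± 3.37 (SD over 10 members), where 3.99% were. Over all batches of a genotype the shares were 18.9% against 12.9% and 7.00% against 3.36%, and batches then enter the likeness. Of the 40 EED-cKO members, 3 had no member among their neighbours in the batch.

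Between genotypes, levels in the members are given side by side only, as batches differ too. Spib was at 654 CPM in EED-cKO members and 563 CPM in Aire/EED-dKO members, Tnfaip2 at 261.8 and 264.1, Ccl9 at 320 and 456, Ccl20 at 138.9 and 300, Gp2 at 87.2 and 110.8 and Sox8 at 76.8 and 115.6 CPM. In the remaining cells Spib was at 458 and 335 CPM, Tnfaip2 at 71.04 and 37.4, Ccl9 at 24.1 and 22.9, Ccl20 at 15.7 and 7.55, Gp2 at 9.16 and 17.6 and Sox8 at 16.1 and 12.6 CPM. As the score chose which cells remain, these levels are a description too.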

How the data were processed

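RamDA-seq libraries of single mTEChigh were analysed, 1 library per sorted cell and without molecular identifiers, so counting intervals cover counting error only. The authors trimmed reads with fastx_trimmer and fastp 0.20.0, aligned them to mm10 (GRCm38) with STAR 2.7.3a, removed alignments with a mapping quality under 5 (SAMtools 1.9) and duplicates (Picard 2.21.1), and counted reads per gene without strand with HTSeq 0.11.2. They kept cells with more than 200000 reads and 8000 genes. The deposited table holds these raw counts for 50197 genes, of which 186 have no name here. The deposited normalized values are on a natural log scale, the log of count over total times 10000 plus 1, which the counts gave back within 5.3e-15. Reads of a gene and its antisense partner cannot be told apart.

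The score was taken from the normalized values and all levels from the counts. Genes with at least 5 reads in 20% of members or of the remaining cells were compared, with 0.1 CPM added, separately in each genotype (Python 3.11.15, numpy 2.4.6, pandas 2.3.3, scipy 1.17.1). Calls needed a 2-fold difference and the same sign in each batch with at least 3 members, and genotypes with under 10 members gave no calls. As the labels name no animal, no test over cells was run, edgeR (4.0.16) and DESeq2 (1.42.0) served for scaling factors alone, and no doublet caller was run on cells sorted singly. The comparison was also run on simulated counts with known changes, as a check of the code alone. Simulated cells had a smoother spread than genes with most member reads in 1 cell. That run therefore does not give the rate of false calls in these data. Named genes were, per genotype, the 12 called genes with the largest ratio above 0 and the 8 with the largest below 0, the 10 with the largest smaller ratio among those called higher in both, the score markers, Aire, Eed and members of gene lists. Models named Gm plus digits, names ending in Rik and identifiers with no usual name were left out before ranking. Statements on the largest called ratios hold among the genes kept. Other list genes without a call, such as Sox10 and Ccl2, and the cells of ranks 1, 2, 9 and 28 by score were singled out after their values were seen. The members and lists were chosen with earlier results of these data known. Alternatives covered the number of cells, the score, the scaling, the filter, the added CPM and each batch left out. A few genes of the lists are not reported here.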

Additional observations from a re-analysis of the deposited data

Results flagged for a closer look

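In 61 comparisons of the 4 EED-cKO batches, a batch stood apart from the others in 2, where chance gives about 1 in 20. The log2 ratio of Ccl5 was 1.92 in batch 9 and 0.79, 0.65 and 0.77 in batches 3, 4 and 8. The ratio of Stac2, an adaptor gene low in the members, was -2.79 in batch 9 and between -5.02 and -4.96 in the other batches.

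Of 89 genes compared in both genotypes, 4 had ratios of opposite sign, with every batch of at least 3 members on its side. The differences between genotypes were not tested, and genotype and batch cannot be told apart. Lipa had a ratio of 1.61 in EED-cKO but -0.67 in Aire/EED-dKO, a difference of 2.28. For Ets1 the ratios were 1.08 and -0.26, a difference of 1.34. For Sox13 they were -1.04 and 1.48, a difference of -2.52. Nxph1 was at 1.01 in EED-cKO but had no read in the 10 Aire/EED-dKO members, so its fitted difference of 8.16 depends on the 0.1 CPM added.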

How the results depend on the processing

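Of 360 recomputed summary values, 79 moved, and 10 took another sign, 8 of them the Aire ratio and 2 the Aire/EED-dKO chemokine median. Ratios and medians counted as moved beyond the SD over the batches with at least 3 members. Shares of genes called and the number of EED-cKO members counted as moved beyond 1.5 times. In Aire/EED-dKO the SD rests on batches 1 and 7 alone. It was 0.0091 for Aire and 0.062 for the multiome median, so even small shifts of these counted as moved. Batch 2 does not enter it, so the count does not measure movement beyond the spread of all batches. Shares of genes called are percentages of the genes compared. Of 3425 recomputed ratios of single called genes, 26 changed sign. With fewer than 10 Aire/EED-dKO members (8 among the 30 highest cells, 7 without Ccl9, 9 without Ccl20, 9 without the highest-scoring or the cycling cells, and 7, 8 and 5 without batches 1, 2 and 7) no calls were made there. No paired analysis was possible because the results come from no test and the replicate numbers only name cells. The labels do not say whether batches were separate animals, so batches were not tested as replicates, and ratios within batches and a ratio weighted by batch are given. For every moved value the cause was not tested, except where fewer cells or genes enter by construction.

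Members chosen otherwise gave the following. Among the 30 highest cells, 22 were EED-cKO, with 2.41% of genes higher and 8.07% lower, and Aire stood at -0.46 in EED-cKO, against -0.77 in Aire/EED-dKO. There the Aire/EED-dKO medians were 0.79 for M cell genes, 0.45 for chemokines and 0.71 for multiome genes, and Tm4sf4 was at -1.27. With 75 cells, 2.07% of genes were lower in EED-cKO, with a cycling median of -1.11, and Aire/EED-dKO had Aire at -0.43 and a multiome median of 1.06. With the 6 genes scaled to SD 1, Aire was at -1.29 and the multiome median at 0.75 in Aire/EED-dKO. With 25 cells of each genotype, EED-cKO had Aire at -0.47 and Nxph1 at -0.055. Aire/EED-dKO then had 2.32% of genes higher and 3.83% lower, Aire at -0.63, a multiome median of 0.31, Cd86 at 0.070, Pik3r6 at 0.67 and Slc13a1 at 0.68.

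Leaving 1 gene out of the score, values are in the order of the genes. Without Spib, 2.46% of genes were higher in EED-cKO, Nxph1 was at -0.025 and Stac2 at 1.24, and in Aire/EED-dKO Aire was at -1.64 and the multiome median 0.54. Without Gp2, Stac2 was at 0.054 in EED-cKO, while Aire/EED-dKO had Aire at -1.18 and a chemokine median of 0.26. Without Sox8, Stac2 was at 0.18 in EED-cKO and Aire at -0.39 in the other genotype. Without Tnfaip2, 2.504% of genes were higher in EED-cKO and Stac2 was at 1.26, with Aire at -0.35, the multiome median at 0.74 and Mall at -0.14 in Aire/EED-dKO. Without Ccl9, 2.31% of genes were lower in EED-cKO and Krt84 was at -0.68. Aire/EED-dKO then had Aire at -1.38, medians of -0.022 (chemokines) and 0.33 (multiome), C4bp at -1.49, Cav1 at -0.068, Mgam at -0.36, Prss16 at 0.64 and Tm4sf4 at -0.25. Without Ccl20 the chemokine medians were 0.065 and 0.0057, Ets1 was at -0.17 and Nxph1 at -0.086 in EED-cKO, and Aire was at -0.15 in Aire/EED-dKO.

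In Aire/EED-dKO the Aire ratio was 0.038 with the mean CPM of cells (chemokine median 0.34), -0.48 with batches weighted, -0.16 with TMM factors (multiome median 0.80) and -0.074 with DESeq2 factors. The DESeq2 factors shifted EED-cKO ratios by 0.13. Keeping genes with 1 read, 0.768% of genes were higher and 7.18% lower in EED-cKO, and 3.10% were higher in Aire/EED-dKO. On day 4 alone EED-cKO had 22 members, 3.15% of genes higher and 7.08% lower.

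Leaving out each batch, EED-cKO gave 1.77% to 3.59% of genes higher, 5.41% to 7.18% lower and cycling medians of -3.64 to -1.61. Aire/EED-dKO gave Aire from -1.22 to 0.17, and medians of 0.10 to 1.08 (chemokines), 0.78 to 0.95 (multiome) and -2.22 to -0.57 (cycling). There Itgam went from -0.056 to 3.62 and Rel from -0.28 to 1.57 (both lowest without batch 1), and Cd79b from -0.077 to 1.64 and Wfdc2 from -0.25 to 1.75 (both lowest without batch 7).

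Chosen after seeing the data were the following. Without the highest-scoring cell of each genotype the cycling median was -3.67 in EED-cKO, and Aire was at -0.12 and the multiome median at 0.95 in Aire/EED-dKO. Without the member with most reads of the gene, EED-cKO had 0.648% of genes higher, 9.16% lower and a cycling median of -4.06. Aire/EED-dKO had 2.22% higher and 26.6% lower, Aire at -1.03, medians of 0.086 (M cell genes), -0.96 (chemokines), 0.087 (multiome) and -2.34 (cycling), Cav1 at -0.073 and Rel at -0.082. Without cycling cells the EED-cKO cycling median was -0.75, Mki67 was at 0.48, and Aire was at -0.33 in Aire/EED-dKO. Without the Aire/EED-dKO cell with Aire at 1666 CPM, Aire was at 0.47.

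The 10 Aire/EED-dKO members hold 7891793 reads and 47058099 were summed for the 40 EED-cKO members, so levels of a few CPM in the former rest on few reads in few cells. No animal is named, so nothing here measures the spread between animals.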
